A study of Arabidopsis thaliana with 24 samples.

Results

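The 128 probe sets described here had at least 50 units of intensity in roots after 0.5 h of cold, stood at 0.33 or less of that level in roots after 24 h, and stayed between 0.67 and 1.5 of their 0.5 h level in shoots. A probe set is a group of array probes meant to measure 1 transcript, though some probe sets read transcripts of several genes. The members were thus chosen by their 0.5 h and 24 h intensities in both tissues. Each level used for this choice was the mean of 2 arrays with 10 units added before the ratio was taken. The 128 were drawn from 22746 probe sets other than the array's control probes, of which 10942 reached 50 units in roots at 0.5 h and 317 met the root criterion. Of those 317, another 95 were also at 0.33 or less in shoots, 86 lay between 0.33 and 0.67 in shoots, and 8 lay above 1.5 in shoots. The platform annotation named 1 gene for 71 members and no gene for the other 57, which are counted below and mostly not described one by one.

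The plants were Arabidopsis thaliana of accession Col-0 (stock N1092), with no mutation or transgene named, grown on Murashige and Skoog medium at 24 °C, 50% humidity and 16 h days. On day 16 and 3 h into the light period the boxes of plants went on ice in a room at 4 °C, where the labels give the room light as 20 and an added lamp as 40 µEinstein. Roots and shoots were collected after 0.5, 1, 3, 6, 12 and 24 h of cold, with 2 arrays for each tissue and time, 24 arrays in 12 groups. No untreated group was used here, so every change is relative to an early time in the cold, and a later time is also another time of day, which cannot be told apart from time in the cold. Whether the 2 arrays of each group stand for separate cultures is not stated in the labels, so the p-values reflect the spread between arrays, which may be technical. The values are deposited array intensities, and every array has the same trimmed mean of 100. The number of arrays, 2 a group, limits the precision.

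The root is the organ that takes up water and ions and works in a medium where oxygen can run short. Plant cells sense low oxygen through group VII ethylene response factors, transcription factors that are degraded while oxygen is present and that switch on a small core set of genes when it falls. Roots also make volatile and non-volatile terpenoids and phenylpropanoid glucosides, export wall-building enzymes such as peroxidases and xyloglucan hydrolases, and carry many proteins of families with a single dominant organ. In bulk root RNA, fewer cells of a type and less RNA per cell cannot be told apart.

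Because the 0.5 h and 24 h arrays chose the members, their values at these times are a description only. The root fall from 0.5 to 24 h ranged from 3.04-fold to 13.2-fold on the scale with 10 units added, with a median of 3.73-fold. The median root intensity of the members was 148 at 0.5 h, 150.3 at 1 h, 128 at 3 h, 108 at 6 h, 48.1 at 12 h and 25.7 at 24 h. At 24 h, 71 of the 128 had a root mean under 30, a level near the floor of these arrays. All 128 had both 24 h root arrays below both 0.5 h root arrays, against 49.9% of the 16073 probe sets with at least 30 units on 2 or more arrays, which the rule made likely. All 128 members passed that filter.

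The flat shoot ratio had 3 different meanings among the members. Shoot levels averaged under 30 over the 12 shoot arrays for 91 members, which are near background in shoots, so that their ratio near 1 says only that they stayed low there. The share with shoots under 30 at both 0.5 and 24 h was 71.1% of the members and 10.8% of the probe sets with 50 units or more in roots at 0.5 h. Another 24 members had shoot means between 30 and 573, and 13 had shoot means between 2640 and 7709, with none between those ranges. The plot of shoot levels against root levels shows these 3 classes.

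**Figure D1:**
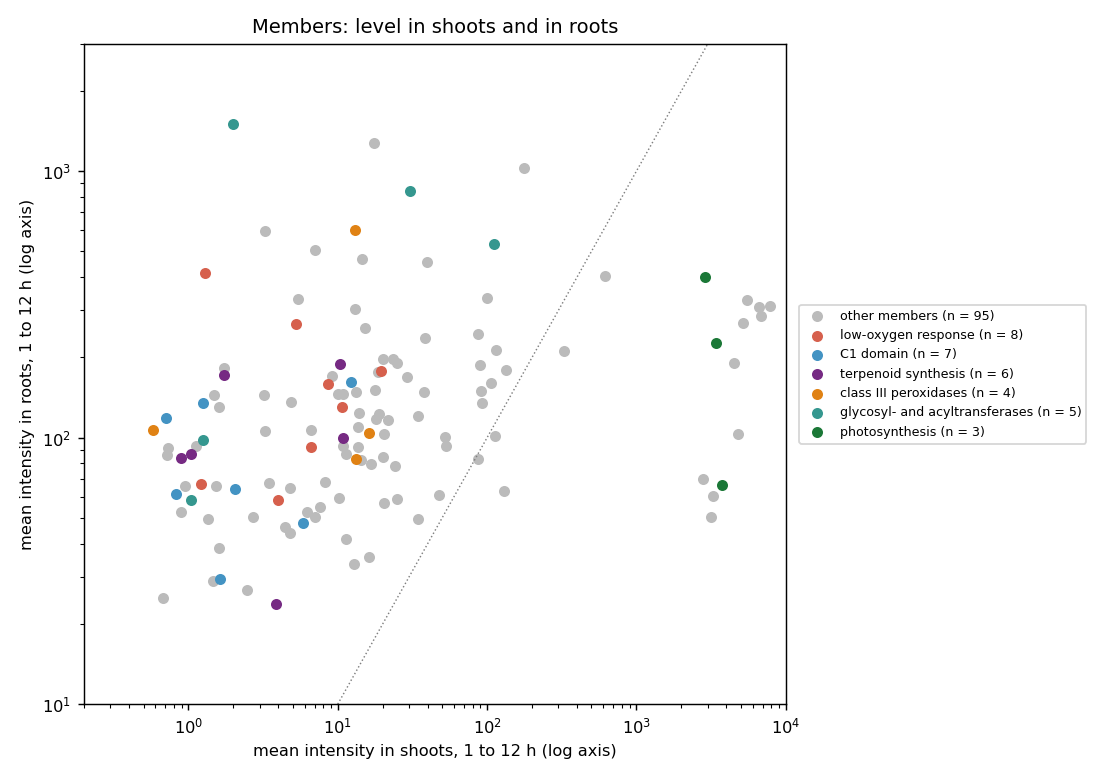
Mean intensity of the 128 members in shoots (horizontal, log axis) and in roots (vertical, log axis) over the 1, 3, 6 and 12 h groups, 1 point for each member, coloured by group of members, with the dotted line at equal levels. Most points lie left of the line at shoot intensities under 30, and 13 lie far to the right above 2000.

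Members just inside and just outside each limit had similar values. AT1G48750, of the lipid transfer protein superfamily, had the root ratio nearest the limit from within among named genes, 0.329, and AT2G47540 lay outside at 0.333. AT5G10210 and AT1G73120 lay just inside the lower shoot limit at 0.675 and 0.676, and AT1G06760 lay just outside at 0.6698. AT2G21560 lay just inside the upper shoot limit at 1.49 and AT5G10040 just outside at 1.52. At the root level limit, 261297_at entered with 50.8 units, and CXE20, of the carboxylesterase family, stayed out with 47. The membership therefore depends on the limits and on the scaling of the arrays: with all arrays set to a common median in place of the trimmed mean, the same rule took 56 probe sets, 53 of them among the 128.

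The 1, 3, 6 and 12 h arrays played no part in the choice, and they show when the root levels went down. At 12 h, 104 of the 128 members were lower in roots than at 1 h and 0 were higher, by limma on log2(intensity + 10) across 16073 probe sets with a Benjamini-Hochberg adjusted p under 0.05. The background was 17.5% of all tested probe sets lower and 8.92% higher, and the median log2 change was -1.24 for the members against -0.13 for all tested. The root fall by 12 h was not particular to the members. It was called in 82 of the 95 probe sets that fell at 24 h in both tissues. The same held for 79 of the 86 with a shoot ratio between 0.33 and 0.67. Both 12 h arrays lay below both 1 h arrays in 121 members, against 46.3% of all tested. The count was 95 of 128 with median-centred arrays, which takes out the shift of all probe sets.

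The fall in roots was late for most members. At 3 h, 3 members were lower than at 1 h and 0 were higher by limma (background 0.106% lower, 0.902% higher), and 23 were lower at an unadjusted p under 0.05. The 3 were AT4G33960, AT3G60490 and 266322_at, and this small count moved with single arrays: leaving out 1 root array of 1 or 3 h at a time gave 1 in 3 cases and 18 without replicate 1 of the 3 h roots. At 6 h, 28 members were lower and 1, 266798_at, was higher by limma (background 1.56% lower, 3.72% higher), and leaving out any 1 of the 4 arrays gave 15 to 18 lower. The median root level left, as a percentage of the 1 h level from the mean log2 values with 10 units added, was 85.4% at 3 h, 74.3% at 6 h and 42.3% at 12 h. A level of 50% or less was reached by 3 h in 5 members, at 6 h in 13 more, at 12 h in 72 more, and not by 12 h in 38. Among all tested probe sets, 0.224% were at such a level at 3 h, 0.541% at 6 h and 4.4% at 12 h.

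Markers of cell types were followed beside these counts. The summed intensity of 2 of 2 root markers, PYK10 and OSM34, was 4482 to 4880 over the 1 h root arrays and 4792 to 5178 over the 12 h root arrays. The 2 measured of 8 root hair markers, EXPA7 and EXPA18, summed to 132 to 187 at 1 h and 98.4 to 112 at 12 h. The 2 cortex markers, AT1G62500 and AT1G09750, summed to 214 to 275 at 1 h and 117 to 155 at 12 h, and AT1G62500 was lower at 12 h by limma (log2 change -0.82 ± 0.21 SE, adjusted p = 0.0078), while AT1G09750 did not pass (log2 -0.72 ± 0.44 SE, adjusted p = 0.25). No marker was at 0. No endodermis, xylem, phloem or meristem marker of the lists was measured by a probe set that the annotation names. The part of these cell types in the members' fall was not tested.

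Several genes of the low-oxygen response were among the members that fell earliest and furthest. Of the 128 members, 8 belong to the core set that plant cells switch on when oxygen falls, a list brought together after the values had been seen. The root falls of these 8 from 0.5 to 24 h ranged from 3.065-fold to 13.19-fold, with a median of 6.53-fold. By limma, 0 of the 8 were lower at 3 h than at 1 h, and 6 were at an unadjusted p under 0.05. Their median root level was 51.9% of the 1 h level at 3 h, 29.7% at 6 h and 13.5% at 12 h. By limma, 7 of the 8 were lower at 6 h than at 1 h (5 or 6 with 1 array left out, 4 with 1 unit added before the log in place of 10) and 7 of 8 were lower at 12 h. Among all tested probe sets, 1.56% were lower at 6 h and 17.5% at 12 h. A level of 50% or less of that at 1 h was reached by 6 h in 7 of the 8 and in 11 of the other 120 members.

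AT1G33055, a gene of unknown function known for its strong induction by low oxygen, had the largest fall of all members. Its root intensities were 632 and 249.9 at 0.5 h, 700.5 and 598 at 1 h, 368 and 116 at 3 h, 83 and 187 at 6 h, 40 and 40.7 at 12 h, and 22.4 and 26 at 24 h. Every root array from 3 h on lay below both 1 h arrays, and the 12 shoot arrays stayed between 1.88 and 12.1. The log2 change from 1 to 12 h in roots was -3.71 ± 0.43 (SE, n = 2 arrays a group, limma, adjusted p = 6.8e-06), and at 6 h it was already -2.28 ± 0.43 (adjusted p = 0.0027).

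AT3G10040 encodes HRA1, a trihelix transcription factor known to hold back the low-oxygen response it is induced by. Its root intensities were 274 and 94.3 at 0.5 h, 222 and 225 at 1 h, 128 and 63.1 at 3 h, 18.9 and 44.5 at 6 h, 22.5 and 12.8 at 12 h, and 3.88 and 8.41 at 24 h. The 1 h and 3 h arrays did not overlap, the 6 h and 12 h arrays did, and all shoot arrays lay between 1.35 and 11.8. The change from 1 h in roots was -2.56 ± 0.42 on the log2 scale at 6 h and -3.10 ± 0.42 at 12 h (SE, limma, adjusted p = 0.0008 and 3.8e-05).

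AT5G66985, another small gene of unknown function in the core set, had its lowest root mean at 12 h. Its root arrays read 909 and 532 at 0.5 h, 856 and 849 at 1 h, 517 and 370 at 3 h, 216 and 290 at 6 h, 108 and 107.9 at 12 h, and 138 and 207 at 24 h. The groups from 1 to 12 h did not overlap, and both 24 h arrays lay above both 12 h arrays while still below the 6 h arrays. The log2 change from 1 to 12 h was -2.87 ± 0.23 (SE, limma, adjusted p = 1e-07). AT4G24110, also of the core set, was likewise lowest at 12 h, going from 112 and 120.2 at 1 h through 10 and 8.96 at 12 h to 14.2 and 32.5 by 24 h. In all, 13 of the 128 members had a higher root mean at 24 h than at 12 h.

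The other low-oxygen members differed in when they went down. AT3G27220, a Kelch-repeat protein gene, read 265 and 247 at 1 h, 165 and 146 at 3 h, 49.6 and 92.1 at 6 h and 41.4 and 36.8 at 12 h, a log2 change to 12 h of -2.44 ± 0.27 (SE, limma, adjusted p = 4e-06). AT5G10210 was later: its arrays read 88.9 and 133 at 1 h, 91.2 and 107 at 3 h, 61.3 and 40.9 at 6 h, and 9.45 and 2.82 at 12 h, where the log2 change was -2.91 ± 0.27 (SE, limma, adjusted p = 3.9e-07). For AT5G10210 the 1 h and 3 h arrays overlapped and the 12 h arrays were far below both.

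AT2G17850, of the rhodanese-type sulfurtransferase family, and AT3G29970, of the B12D family, were 2 of the 4 members whose root level was at least 1.5-fold higher at 1 h than at 0.5 h. AT2G17850 read 250.2 and 81 at 0.5 h, 418 and 416 at 1 h, 266 and 49.5 at 3 h, 32.3 and 167 at 6 h, and 38.1 and 39.7 at 12 h. Its arrays disagreed at 3 and 6 h and agreed closely at 1 and 12 h, with a log2 change to 12 h of -3.13 ± 0.61 (SE, limma, adjusted p = 0.001). AT3G29970 read 152 and 355 at 1 h, 341 and 35.4 at 3 h, 28.8 and 158 at 6 h, 117 and 83.8 at 12 h, and 12.1 and 13.7 at 24 h. Its replicates differed widely from 1 to 6 h, and its change to 12 h did not pass the test (log2 -1.16 ± 0.68 SE, limma, adjusted p = 0.24).

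The core low-oxygen list as a whole did not move in 1 direction. Of its 44 genes, 19 were measured by a probe set the annotation names, 8 of them members. In roots at 12 h, 11 of the 19 were lower and 2 higher by limma (background 17.5% and 8.92%), with a median log2 change of -1.27 against -0.13 for all tested. The members were chosen for falling, so the first of these counts is not independent of them. PDC2, a pyruvate decarboxylase of ethanol fermentation, rose in roots from a mean of 276 at 1 h to 741 at 12 h (log2 change 1.4 ± 0.27 SE, limma, adjusted p = 0.00095). AT4G10270 went down in roots from 289.6 to 10.6 (log2 change -3.89 ± 0.35 SE, limma, adjusted p = 2.8e-07) and is no member because its shoot ratio was 0.474.

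**Figure D2:**
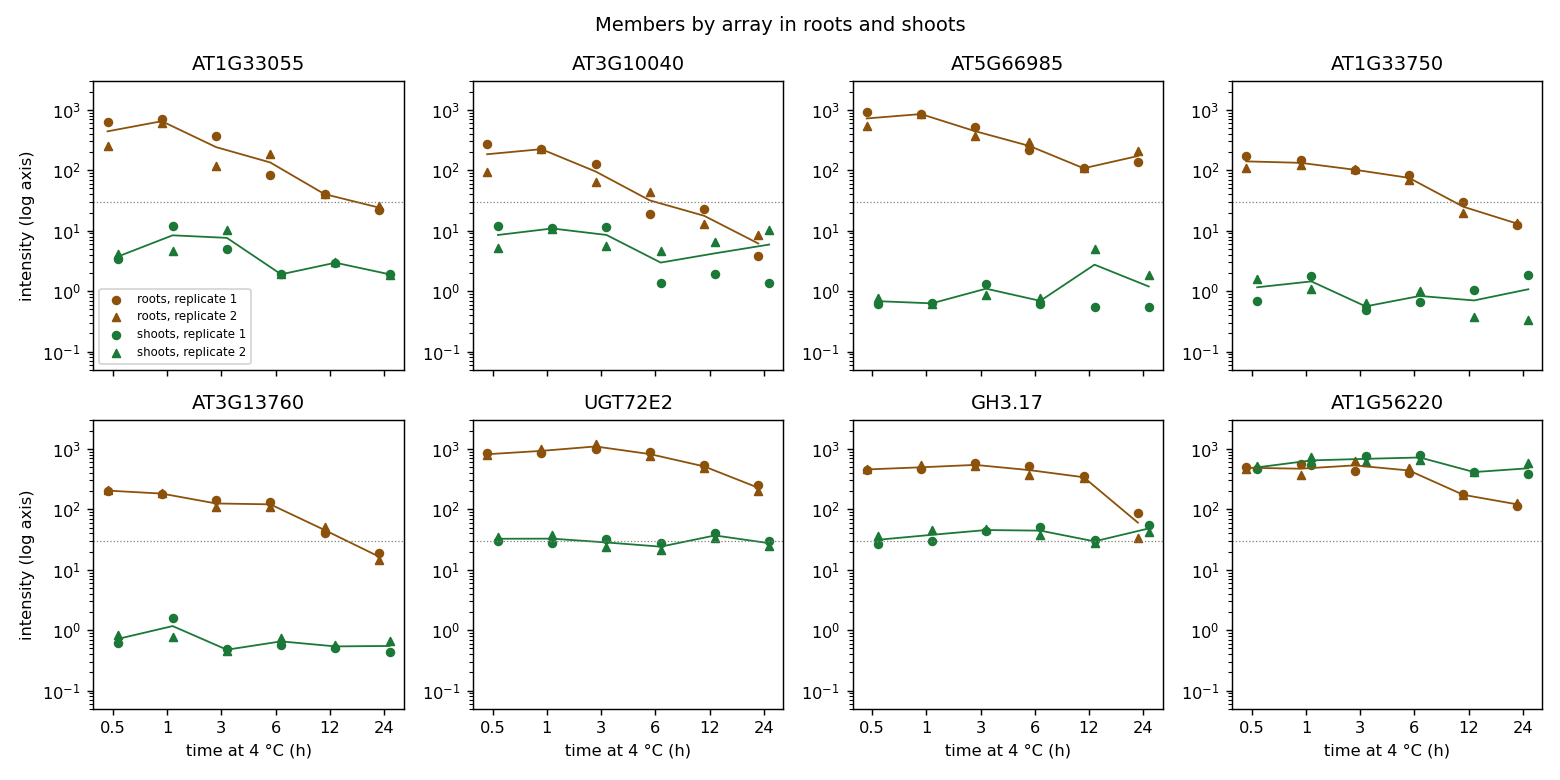
Intensity on every array (log axis) against time at 4 °C for 8 members, roots in brown and shoots in green, circles for replicate 1, triangles for replicate 2, lines through the means, and a dotted line at 30 units. AT1G33055, AT3G10040 and AT5G66985 descend from 1 h on, AT1G33750 and AT3G13760 mostly after 6 h, and GH3.17 mostly between 12 and 24 h, while AT1G56220 starts at nearly equal levels in both tissues.

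Genes of terpenoid synthesis formed a second group, brought together after the values had been seen. There were 6 members, with root falls from 0.5 to 24 h of 3.8-fold to 6.53-fold, and their shoot means were between 0.963 and 10.8. By limma, 5 of 6 were lower in roots at 12 h than at 1 h, against 17.5% of all tested probe sets. Terpene synthases close the carbon skeletons of mono-, sesqui- and larger terpenes from prenyl diphosphates.

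AT1G33750, a terpene synthase gene (TPS22), had root intensities of 146 and 120.2 at 1 h, 99.4 and 105 at 3 h, 82.1 and 67.8 at 6 h, 30.2 and 19.7 at 12 h, and 12.6 and 13.5 at 24 h. No 2 of these groups overlapped, and the log2 change from 1 to 12 h was -2.04 ± 0.18 (SE, limma, adjusted p = 2.7e-07). TPS-CIN, which makes the volatile 1,8-cineole in roots, read 329 and 214 at 1 h, 209 and 95.4 at 3 h, 158 and 225.5 at 6 h, and 82.7 and 57.1 at 12 h, with a log2 change to 12 h of -1.81 ± 0.31 (SE, limma, adjusted p = 0.0003). The 6 h arrays of TPS-CIN overlapped those of 1 h and the 12 h arrays did not. The symbol stands for 2 near-identical neighbouring copies, and whether the probes read 1 or both is uncertain.

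AT5G48110 (TPS20) and AT1G31950 (TPS29) fell less by 12 h, with log2 changes of -1.24 ± 0.18 and -0.91 ± 0.16 (SE, limma, adjusted p = 8.5e-05 and 0.00037). AT3G32040, of the geranylgeranyl diphosphate synthase family that supplies precursors, fell from a mean of 38.6 at 1 h to 10.4 at 12 h (log2 change -1.23 ± 0.25 SE, limma, adjusted p = 0.0017). AT3G29410 (TPS25) was the exception, at 206 and 172 at 1 h, 124 and 159.9 at 12 h, and 42.4 and 60.2 at 24 h. Its 12 h change did not pass the test (log2 -0.40 ± 0.28 SE, limma, adjusted p = 0.34), and most of its drop lay between 12 and 24 h. A list of 25 terpene synthases, also brought together after the values were seen, had 8 measured genes, 5 of them members. Of the 8, 6 were lower and 0 higher in roots at 12 h, against 17.5% and 8.92% of all tested probe sets. The members were chosen for falling, so this count is not independent of them. Of the genes that are not members, AT1G66020 and AT3G32030 were lower (limma, adjusted p = 0.0071 and 0.00076) and AT4G20230 did not pass (adjusted p = 0.15).

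Enzymes that modify phenylpropanoids and related compounds gave 5 members, grouped after their values were seen. UGT72E1 and UGT72E2 attach glucose to the alcohols and aldehydes from which lignin is built, UGT71C1 glucosylates phenolic acids and flavonoids, and AT4G15390 and AT1G78990 belong to the BAHD acyltransferases. By limma, 4 of these 5 members were lower in roots at 12 h than at 1 h (background 17.5%), and none was lower at 6 h (background 1.56%). A search of the reference gene table by word gave 30 measured UDP-glycosyltransferases, with UGT71C1 and UGT72E1 among them but not UGT72E2. Of these 30, 6 were lower and 4 higher in roots at 12 h (background 17.5% and 8.92%), with a median log2 change of 0.07.

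UGT72E2 read 871 and 983 at 1 h, 993 and 1202 at 3 h, 882 and 759 at 6 h, 550.3 and 477 at 12 h, and 256 and 199 at 24 h. Its 3 h arrays were the highest, and only the 12 and 24 h arrays lay clear below 1 h, with a log2 change to 12 h of -0.84 ± 0.17 (SE, limma, adjusted p = 0.0017). UGT72E1 went from 836 and 584 at 1 h to 316 and 294 at 12 h in roots, while its shoot means went from 70.7 at 1 h to 100.8 at 12 h, and its change was lower in roots than in shoots by 1.63 ± 0.36 on the log2 scale (SE, limma, adjusted p = 0.0037). Without replicate 1 of the 1 h roots, the root call of UGT72E1 was lost. AT4G15390 read 1425 and 1613 at 1 h, 1261 and 1238 at 12 h, and 442 and 416 at 24 h. Its 12 h change was small and did not pass the test (log2 -0.28 ± 0.16 SE, limma, adjusted p = 0.23).

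GH3.17, an amido synthetase that joins auxin to an amino acid and so takes it out of the active pool, had the same late course. Its root arrays read 444 and 470 at 0.5 h, 460.2 and 531 at 1 h, 573 and 514 at 3 h, 521 and 369.7 at 6 h, 349.5 and 329.8 at 12 h, and 86.3 and 34 at 24 h. The 1 h arrays overlapped those of 0.5, 3 and 6 h. Both 12 h arrays lay below every earlier array, but the change from 1 h did not pass the test (log2 -0.53 ± 0.27 SE, limma, adjusted p = 0.17), and the 24 h arrays stood far below the rest. Its shoot arrays lay between 26.3 and 54.3.

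The class III peroxidases, secreted enzymes that cross-link wall polymers and handle reactive oxygen, gave 4 members, grouped after their values were seen. The 4 were AT2G18980, AT5G19890, AT3G49960 and AT1G44970, with a median of 97.1% of the 1 h root level at 3 h, 85.9% at 6 h and 57.7% at 12 h. None of the 4 had reached 50% by 12 h. A search of the reference gene table by word gave 6 other measured class III peroxidases, none of them a member. Of those 6, 1 was lower and 0 were higher in roots at 12 h by limma (background 17.5% and 8.92%), with a median log2 change of 0.017. AT2G18980 read 598 and 982 at 1 h, 425 and 402 at 12 h, and 232 and 89.7 at 24 h. It was the only 1 of the 4 to pass at 12 h (log2 -0.87 ± 0.31 SE, limma, adjusted p = 0.048), and it no longer passed with median-centred arrays, without either 12 h root array or without replicate 2 of the 1 h roots. Its call was also lost with no filter and with 1 unit added before the log.

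Proteins with C1 domains, a large plant family of cysteine- and histidine-rich proteins of mostly unknown function, gave 7 members. These 7 were grouped after their values were seen, and the measured genes of the whole family were not counted. The shoot means of the 7 were between 0.684 and 12. By limma, 5 of the 7 were lower in roots at 12 h, against 17.5% of all tested probe sets, and 3 of 4 where a mean intensity filter was used. AT3G13760 in roots read 179 and 185 at 1 h, 140.3 and 109.7 at 3 h, 131 and 111 at 6 h, 40.5 and 50.5 at 12 h, and 18.7 and 14.4 at 24 h. Its arrays agreed closely within every group, and its log2 change to 12 h, -1.80 ± 0.13, had among the smallest errors of the members (SE, limma, adjusted p = 2.9e-08). AT4G14980, AT2G02630, AT1G66440 and AT2G44380 also fell, with log2 changes to 12 h from -1.39 to -2.23. AT1G61840 and AT1G44050 did not pass, at log2 changes of -0.29 ± 0.40 and -0.37 ± 0.31 (SE, limma, adjusted p = 0.65 and 0.42), and their 1 h arrays were far apart, 27.5 and 92.5 for AT1G61840 and 94.6 and 184 for AT1G44050.

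Wall and extracellular proteins gave 6 members, grouped after their values were seen. By limma, 4 of the 6 were lower in roots at 12 h, against 17.5% of all tested probe sets, and 1 of 3 where a mean intensity filter was used. XTH21, a xyloglucan-modifying enzyme of the wall, read 55.3 and 36.9 at 1 h, 19.3 and 29.5 at 3 h, 14.5 and 28.9 at 6 h, and 10.3 and 6.19 at 12 h, a log2 change of -1.61 ± 0.28 (SE, limma, adjusted p = 0.00044). Its groups from 3 h on lay below both 1 h arrays, and it was the 1 member among 9 xyloglucan enzymes that the reference gene table names. AT1G70990, a proline-rich family protein, AT4G11190, a dirigent family protein, and AT2G43600, of the chitinase family, fell by 1.63, 1.84 and 1.22 on the log2 scale to 12 h (limma, adjusted p = 6.9e-05, 0.0083 and 0.0002). AT5G14650, of the polygalacturonase family, and AT1G56680, of the chitinase family, did not pass at 12 h (limma, adjusted p = 0.072 and 0.25).

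**Figure D3:**
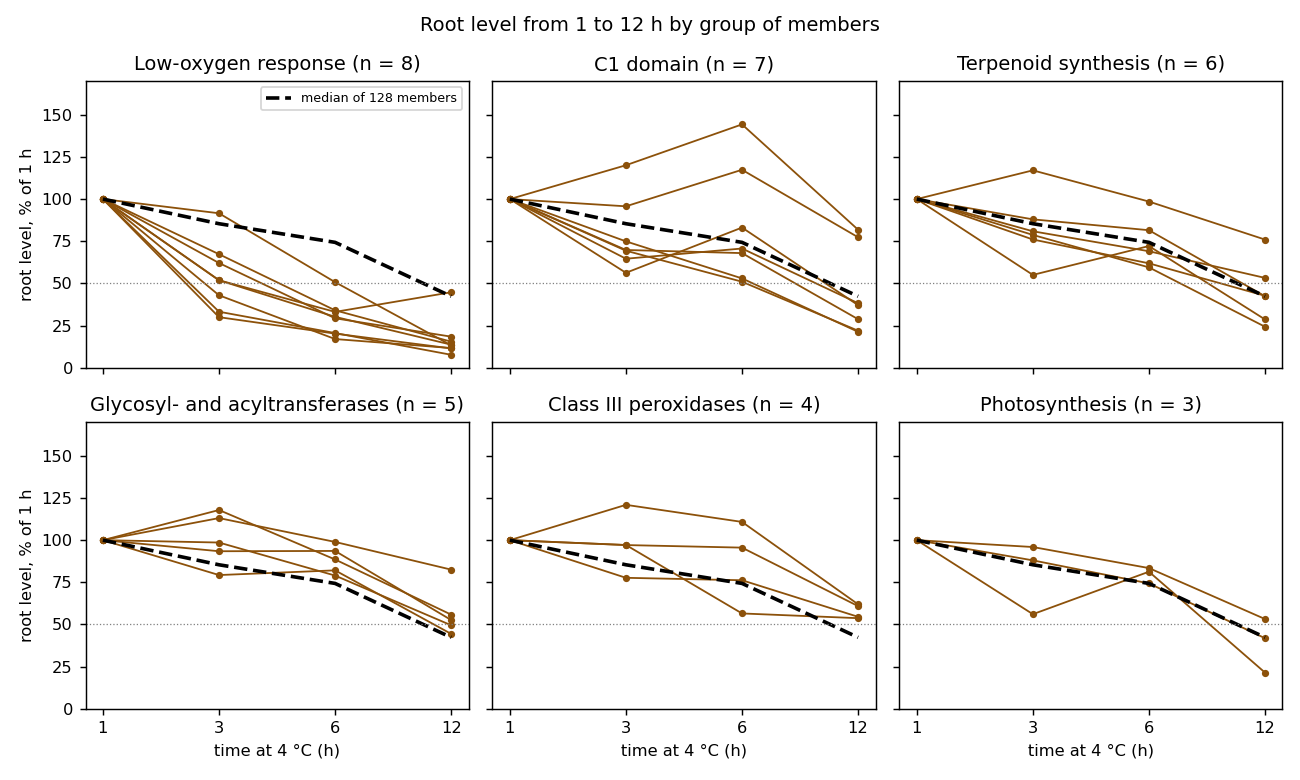
Root level at 1, 3, 6 and 12 h as a percentage of the 1 h level, from the mean log2 values with 10 units added, for 6 groups of members: brown lines are single members, the dashed black line is the median of all 128 members, and the dotted line marks 50%. Low-oxygen members run below the dashed line from 3 h on, except AT5G10210 at 3 h and AT3G29970 at 12 h, and the peroxidases end above 50%.

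A pair of members that encode transcription factors was picked after the values were seen. Both were lower in roots at 6 h and 12 h by limma (background 1.56% and 17.5%). AT3G60490, of the ethylene response factor family, had root intensities of 78.2 and 64.9 at 1 h, 31.8 and 33.9 at 3 h, 15 and 20.2 at 6 h, and 12.5 and 11.1 at 12 h. No 2 of these groups overlapped, and the log2 change from 1 h was -0.92 ± 0.18 at 3 h and -1.90 ± 0.18 at 12 h (SE, limma, adjusted p = 0.013 and 5.9e-07). AT3G25790 (HHO1), a repressor that responds to nitrate and phosphate supply, read 132 and 90 at 1 h, 62.9 and 97.3 at 3 h, 42.1 and 41.6 at 6 h, and 38.7 and 37.8 at 12 h. Its 3 h arrays overlapped those of 1 h, and its 6 and 12 h levels were close to each other and well below 1 h, with log2 changes of -1.20 ± 0.27 and -1.30 ± 0.27 (SE, limma, adjusted p = 0.01 and 0.0016).

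Of the transporters, AT3G45710, of the nitrate and peptide transporter family, kept its level until 6 h and then fell. It read 109 and 45.8 at 1 h, 60.6 and 84.7 at 6 h, and 23.3 and 16.7 at 12 h, a log2 change of -1.45 ± 0.31 (SE, limma, adjusted p = 0.0023). AT4G00910, of the aluminium-activated malate transporter family, did not pass at 12 h (log2 -0.78 ± 0.37 SE, limma, adjusted p = 0.14). AT1G72200, of the RING-type ubiquitin ligase family, went from 185 and 118 at 1 h to 22.5 and 23 at 12 h, with a log2 change of -2.27 ± 0.31 (SE, limma, adjusted p = 4.5e-05). AT1G73120, a gene of unknown function, fell by 1.86 ± 0.56 on the log2 scale to 12 h (SE, limma, adjusted p = 0.021), and it no longer passed without either 12 h root array or without replicate 1 of the 1 h roots. Its call was also lost with 1 unit added before the log.

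Of all tested probe sets, 17.5% were lower in roots at 12 h by limma. Among the 57 members with no named gene, 47 were lower, against 57 of the 71 named ones. Their root falls from 0.5 to 24 h ranged from 3.04-fold to 9.84-fold. The probe set 263096_at, picked after its values were seen, was the clearest case of a fall after 12 h: it read 1405 and 1569 at 1 h, 1727 and 1280.3 at 12 h, and 290.3 and 279 at 24 h. Its 1 h and 12 h arrays overlapped, and both 24 h arrays lay far below every earlier one. Of the 128 members, 24 did not pass at 12 h, and these hold genes with a late fall such as GH3.17 as well as genes with replicates far apart such as AT5G14650.

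The comparison with shoots was tested on the change from 1 to 12 h. In shoots, 21 members (16.4%) were lower and 3 (2.34%) higher at 12 h by limma, while 23.2% of all tested probe sets were lower and 13.8% higher. Both shares were thus below the background. The rule asked for a flat shoot ratio, and 91 members had shoot means under 30, so few calls in shoots were likely. Leaving out 1 shoot array of these groups at a time gave 13 to 19 changed members in place of 24, with 13 when replicate 2 of the 12 h shoots was left out. The fall was larger in roots than in shoots in 53 members and smaller in 1 by limma on the difference of the changes (background 10% and 9.13%), and in 35 with 1 unit added before the log. Of the 53, 39 had shoot means under 30 and 14 had shoot means of at least 30. With little shoot signal to lose, the test for these 39 mostly repeats their root fall. Of the 95 probe sets that fell at 24 h in both tissues, 2 had the larger fall in roots at 12 h and 19 the larger fall in shoots. Of the 86 with a shoot ratio between 0.33 and 0.67, 20 had the larger fall in roots and 1 the larger fall in shoots, so the larger root fall was not confined to the members. Earlier contrasts gave few calls. In shoots, 1 member was higher and 2 lower at 3 h (background 2.85% and 0.703%), and 2 were higher and 8 lower at 6 h (background 7.81% and 8.55%). The fall was larger in roots in 1 member at 3 h (background 0.871%), and at 6 h it was larger in 5 and smaller in 1 (background 3.24% and 2.33%), by limma as before. The contrasts of both tissues are each set against their own 1 h arrays.

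**Figure D4:**
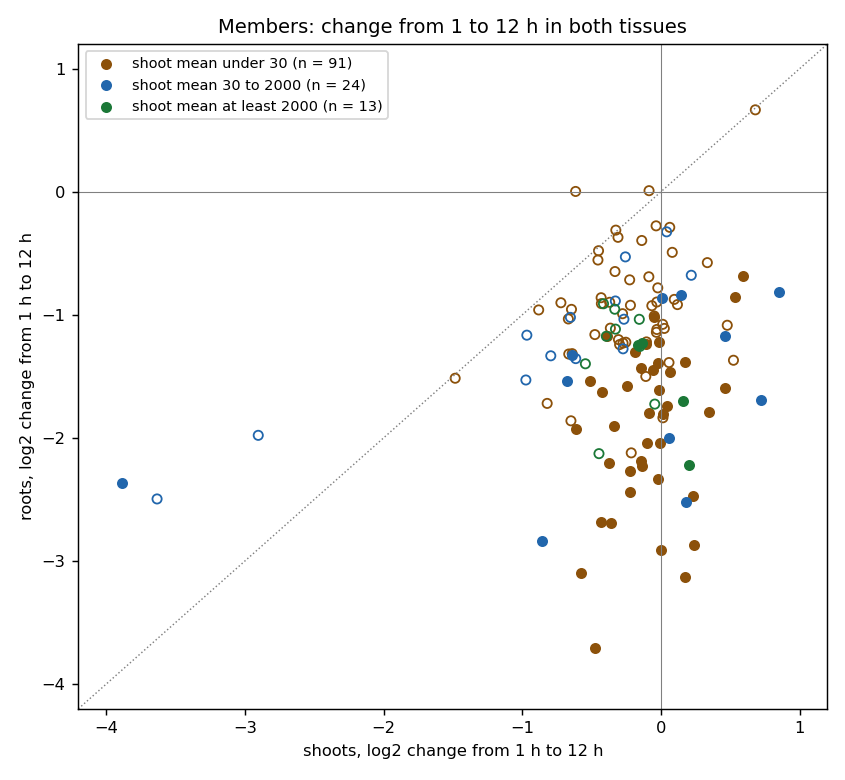
Log2 change from 1 to 12 h in shoots (horizontal) and in roots (vertical) for the 128 members, coloured by mean shoot intensity, with filled points where the change differed between tissues by limma (adjusted p under 0.05), lines at 0 and a dotted line of equal change. Most points lie below the dotted line, and 3 members with shoot means between 30 and 2000 lie at the far left, with a larger fall in shoots.

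Members present in both tissues show the difference most directly, since 91 of the members had little shoot signal to lose. Of the 24 with shoot means between 30 and 573, 22 were lower in roots at 12 h, 11 were lower and 2 higher in shoots, and 10 had the larger fall in roots, all by limma. Among all tested probe sets, 17.5% were lower in roots, 23.2% lower and 13.8% higher in shoots, and 10% had the larger fall in roots. The share of the 24 that was lower in shoots, 45.8%, was thus above the background. AT2G21560, a gene of unknown function, read 147 and 151 in roots at 1 h, 44.4 and 34.2 at 12 h, and 22.4 and 19.7 at 24 h. Its shoots went from 25.6 and 59.8 at 1 h to 71.8 and 72.2 at 12 h, a rise that passed the test (log2 0.72 ± 0.25 SE, limma, adjusted p = 0.032), so the tissues moved in opposite directions. The difference of the changes was -2.41 ± 0.35 on the log2 scale (SE, limma, adjusted p = 9e-05).

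AT4G33960 read 141 and 138 in roots at 1 h, 79.7 and 84.8 at 3 h, 77.9 and 88.4 at 6 h and 27.4 and 27.4 at 12 h, against 74.6 and 70.1 in shoots at 1 h and 69 and 82.9 at 12 h. The root groups of 1, 6 and 12 h did not overlap, the shoot groups of 1 and 12 h did, and the difference of the changes was -2.05 ± 0.21 (SE, limma, adjusted p = 1.5e-06). CYP71B26, a cytochrome P450, fell in roots from a mean of 118 at 1 h to 70.2 at 12 h (log2 -0.68 ± 0.22 SE, limma, adjusted p = 0.029), and its difference from shoots did not pass (limma, adjusted p = 0.051). Its root call was lost when any 1 of these 4 root arrays was left out. It was also lost with median-centred arrays, after quantile normalization and in a fit to only the 16 arrays of 1 to 12 h.

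Some members that met the rule also fell in shoots before 24 h. AT1G56220, of a dormancy- and auxin-associated family, had nearly equal levels in both tissues at 0.5 h, 503 and 471 in roots and 466 and 522 in shoots. Its roots read 566 and 374.5 at 1 h, 177 and 171 at 12 h, and 114 and 128 at 24 h, while its shoots read 551 and 739 at 1 h, 409.8 and 417 at 12 h, and 380.1 and 575 at 24 h. Both tissues were lower at 12 h, by 1.36 ± 0.23 in roots and 0.61 ± 0.23 in shoots on the log2 scale (SE, limma, adjusted p = 0.00027 and 0.042), and the difference did not pass (adjusted p = 0.12). AT1G48750 likewise fell in both, with log2 changes of -1.17 ± 0.28 and -0.97 ± 0.28 (SE, limma, adjusted p = 0.0049 and 0.011), and its root call was lost without replicate 2 of the 12 h roots or replicate 1 of the 1 h roots.

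The probe set 258133_at, picked after its values were seen, went down further in shoots than in roots and came back. Its shoots read 319 and 293 at 1 h, 12.9 and 9.83 at 12 h, and 159 and 144 at 24 h, and its roots read 277 and 263 at 1 h, 41.3 and 47.8 at 12 h, and 59.7 and 92.1 at 24 h. The 24 h shoot level was close to that of 0.5 h, 175 and 159, which is why the rule took it. The change to 12 h was smaller in roots by 1.53 ± 0.32 on the log2 scale (SE, limma, adjusted p = 0.0023), and 2 other members without a named gene, 247406_at and 252374_at, also had their lowest shoot level at 12 h, with differences that did not pass.

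The 13 members with high shoot levels were all lower in roots at 12 h by limma, none was lower in shoots, and the difference between tissues passed in 4. Among all tested probe sets, 17.5% were lower in roots, 23.2% were lower in shoots and 10% had the larger fall in roots. The root level of these members was a small part of the shoot level: over the 13, the median was 4.18% at 1 h, 4.33% at 6 h, 2.09% at 12 h and 1.21% at 24 h. The 3 with a named gene work in photosynthesis, whose proteins sit in the chloroplasts of green cells. psbZ, a photosystem II subunit encoded in the chloroplast genome, read 588 and 653 in roots at 1 h, 513 and 492 at 6 h, 118 and 133 at 12 h, and 96.1 and 266 at 24 h, and fell by 2.22 ± 0.40 on the log2 scale to 12 h (SE, limma, adjusted p = 0.00054). AT1G74470, the geranylgeranyl reductase that supplies the phytyl chain of chlorophyll, and PSAN, a photosystem I subunit, fell by 0.91 ± 0.16 and 1.26 ± 0.29 (SE, limma, adjusted p = 0.0005 and 0.0037).

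Markers of green tissue moved in the same root arrays. The 3 of 3 measured, RCA, LHCB4.2 and SBPASE, summed to 242 to 355 over the 1 h root arrays, 122 to 140 over the 12 h arrays and 99.6 to 100.9 over the 24 h arrays. As a share of the shoot level, RCA in roots went from 3.57% at 1 h to 1.58% at 24 h and LHCB4.2 from 1.16% to 0.0652%, beside 23.3% to 9.01% for psbZ and 2.16% to 0.351% for PSAN. RCA and LHCB4.2 were lower in roots at 12 h (log2 -0.87 ± 0.24 and -2.36 ± 0.27 SE, limma, adjusted p = 0.014 and 6.4e-06), and SBPASE was not called (log2 -0.37 ± 0.22 SE, adjusted p = 0.25). The part of green tissue in the root level of these 13 members was not tested.

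Most members had the higher level in roots. Over the 1 to 12 h arrays, 110 of the 128 were higher in roots than in shoots and 16 lower by limma, where 56.2% and 28.4% of all tested probe sets were higher and lower. Among the probe sets with at least 50 units in roots at 0.5 h, which the rule required, 66.7% were higher in roots and 19% lower. All 91 members with a shoot mean under 30 were among the 110. Low shoot values draw the shoot ratio toward 1, so the rule favoured such members. Of the 37 members with a shoot mean of at least 30, 19 were higher in roots and 16 lower. The 16 were the 13 just described with AT4G33960, AT1G56220 and 247406_at. The genes on chromosomes 1 to 5 were 20, 12, 14, 10 and 13 of the 69 members with a place in the reference gene table, with psbZ on the chloroplast genome. Among these 69 members, 3 pairs lay within 20 protein-coding genes of each other. The closest were AT3G25790 and TPS-CIN, with 4 genes between them on chromosome 3. The 57 members with no named gene could not be placed, so neighbours among them would not have been seen.

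Of 21 gene lists, among them root hair, auxin, cell cycle and clock genes, none held a named member. In 8 of the 21, 0 genes were measured by a probe set that the annotation names, so these 8 could not hold a named member. The lists of ion uptake, aquaporins and suberin were among these 8, as was a list of 9 hypoxia genes, apart from the core low-oxygen list. In the remaining lists the counts of measured genes were small, so these lists say little about the members. Members with no named gene could belong to any of the 21 lists without being seen. The enzyme families searched by word gave XTH21 among 9 xyloglucan enzymes, CYP71B26 among 14 cytochromes P450, and UGT71C1 and UGT72E1 among 30 UDP-glycosyltransferases. This search did not take in UGT72E2, and none of the 6 class III peroxidases it found was a member.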

How the data were processed

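The authors hybridised total RNA of roots and shoots to Affymetrix arrays of 22810 probe sets, and their deposited values are linear intensity from MAS5, per the submitters' processing notes (version and settings: not given in the sources used here). Every array has a 2%-trimmed mean of 100, as a check of the values showed. Here 64 control probe sets were set aside, and probe sets with at least 30 units on 2 or more of 24 arrays, 16073 of 22746, were tested on log2(intensity + 10) with limma 3.58.1 in R 4.3.3. The 12 groups of 2 arrays shared 1 estimate of the spread with 12 residual degrees of freedom, and p-values were Benjamini-Hochberg adjusted over all tested (threshold 0.05). The code was tested on simulated data.

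Only the 16 arrays of 1 to 12 h, which the membership rule did not use, were tested. Contrasts against 1 h share the 1 h arrays. The root 3 h and shoot 1 h replicates differed most, with an SD of the log2 difference of 0.469 and 0.436 against 0.225 to 0.352 in the other groups, and no pair was identical. Alternatives covered the constant, scaling, filter, replicate block and each array left out.

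Members and lists were chosen with earlier results of these data known. Named members are those with 1 gene and the largest 24 h fall, largest and smallest 12 h change, largest tissue difference, highest level, values at a limit, or a place in a list; role groups, the low-oxygen and terpene synthase lists and the other members named for them were chosen after their values were seen. Names come from the platform annotation (13513 probe sets with 1 gene, 503 with several, 8730 with none), of which 13436 matched RefSeq's gene table. Roles are background knowledge. The promoter motif search in the plan was not run, and no sequence is printed.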

Additional observations from a re-analysis of the deposited data

Results flagged for a closer look

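The change from 1 to 12 h differed between roots and shoots in 53 members with the larger fall in roots, by a test of the difference itself (limma, adjusted p under 0.05, 10% of all tested probe sets). Of these 53, 39 had shoot means under 30 and so little shoot signal to lose.

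Among members with a named gene, the difference was largest in 5 of the low-oxygen group, given here as roots minus shoots on the log2 scale with the SE. It was -3.30 ± 0.86 for AT2G17850 (limma, adjusted p = 0.011), -3.23 ± 0.61 for AT1G33055 (adjusted p = 0.00097) and -3.11 ± 0.33 for AT5G66985 (adjusted p = 3.2e-06). It was -2.91 ± 0.38 for AT5G10210 (limma, adjusted p = 2.5e-05) and -2.53 ± 0.60 for AT3G10040 (adjusted p = 0.0058). In all 5 genes both 12 h root arrays lay below both 1 h root arrays, and their shoot arrays were under 30 throughout. The differences of these 5 thus mostly repeat their root falls.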

How the results depend on the processing

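The replicate numbers were not taken to pair the arrays, because not every pair of groups had deviations that correlated above 0.1: in roots, 1 h correlated at -0.42 with 3 h, -0.41 with 6 h and -0.06 with 12 h, while 3 h correlated at 0.32 with 6 h and 0.19 with 12 h, and 6 h at 0.11 with 12 h. With the replicate number as a block, the members lower in roots were 105 at 12 h, 24 at 6 h and 3 at 3 h, and 51 had the larger fall in roots. A crossed block, added after seeing the data, gave 25 at 6 h and 3 at 3 h.

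The number of members became 56 with a common median scaling (53 shared with the 128), 71 with a constant of 32 in the ratio (54 shared), and 117 to 159 with 1 array left out. At 12 h the count of 104 stayed between 85 and 108, at 85 to 93 with 1 array left out. At 6 h the 28 became 15 with 1 unit added before the log, and 15 to 18 with 1 array left out. At 3 h the 3 became 5 with 32 units added, 5 after quantile normalization, 1 to 18 with 1 array left out, and 1 without both replicate 2 of the 3 h roots and replicate 1 of the 1 h shoots (added after seeing the data). The larger fall in roots, 53, became 35 with 1 unit added, and 37 to 52 with 1 array left out. The 24 changed in shoots became 13 to 19 with 1 array left out. Of 30 named members, 25 were lower at 12 h, and 21 to 24 with 1 array left out. Over 299 alternatives for these 25, 285 kept the call, 14 lost it and 0 changed sign. The other 5 gained no call in 59 alternatives, and the sign changed in 3, all for AT1G61840 or AT1G44050. Levels under about 30 units limit what a fall can show, and the constant of 10 makes low genes' changes smaller.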
